A study of Homo sapiens with 6 samples.

Results

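Transcription factors of 4 structural families, the homeobox, basic helix-loop-helix (bHLH), basic leucine zipper (bZIP) and ETS families, were followed in Kasumi-1 cells after knockout of SETD8. Kasumi-1 is a human acute myeloid leukaemia line with the t(8;21) translocation, which fuses the genes RUNX1 and RUNX1T1. The SETD8 knockout group (sgSETD8, CRISPR/Cas9) and the control group (sgNT, labelled WT) each had 3 libraries of poly-T-selected RNA, and all 6 came from this 1 line. SETD8, now KMT5A, encodes the enzyme that places a single methyl group on lysine 20 of histone H4. Whether the libraries of a group are separate cultures or clones is not in the labels. The p-values therefore reflect only how far these 6 samples scatter, and that scatter may be technical.

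Members were the rows of the deposited table annotated as Homeobox, bHLH, TF_bZIP or ETS, leaving out JUN, BHLHE40, DDIT3, ATF5, CEBPA, TAL1, HOXA10 and POU4F1. There were 91 of them among 7983 listed genes, namely 27 homeobox, 27 bHLH, 24 bZIP and 13 ETS genes. The table held no gene with an unadjusted p above 0.049998 in the authors' own test of these 6 libraries. Every member was therefore selected for a difference, and family genes outside the table were not analysed here.

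As background, the families are named for the fold that grips DNA. Homeodomain proteins read short AT-rich sites, often in pairs with a TALE-class partner such as PBX or MEIS, and the clustered HOX genes among them set position in the embryo and are active in blood progenitors. bHLH and bZIP proteins bind as dimers, to E-box sites and to AP-1, CRE or antioxidant-type sites, so the supply of a partner or an inhibitor matters as much as that of the factor. ETS proteins read a GGAA core, and several of them, with E proteins of the bHLH family, are known companions of the RUNX1-RUNX1T1 fusion protein on chromatin.

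Values below are normalized read counts, the authors' reads divided by 1 size factor for each library. A log2 fold change is the knockout minus the control mean of log2(value + 1). On this scale changes of weakly read genes can come out smaller or larger than in a count test. LHX2 was at 2.92 here and 3.05 by DESeq2, and NPAS2, with a 0 in knockout library 1, at -2.62 here and -2.24 by DESeq2. Adjusted p-values come from limma-trend over the whole table with Benjamini-Hochberg adjustment over 19860 genes, the number the authors adjusted over. Where a trend of neighbouring genes or of gene length was removed, it was subtracted as a fixed number. The uncertainty of that trend is then not in the p-value. Reads in listed genes ran from 11721821 to 12557974 in the knockout libraries and from 10966349 to 11690249 in the control libraries. The targeted gene KMT5A, on chromosome 12, 123383773 to 123409358 of build hg38, had values of 879.7, 933 and 939 in the knockout libraries, against 1191, 1212 and 1255 in the control libraries. It was lower in every knockout library (log2 fold change -0.41, SE 0.070, adjusted p = 5.65e-05). Of 8 genes written as markers of this leukaemia, 7 were listed, CD33 and ANPEP higher (log2 fold changes 1.19 and 1.34), MPO, PTPRC and KIT lower (-2.99, -1.17 and -0.48), and CD34 and RUNX1T1 not called. Of 18 markers of other cell types, 7 were listed. Among them, PDGFRB, CD79A, CD3D and EPCAM were higher (log2 fold changes 2.41, 0.65, 0.42 and 0.52), ITGA2B was lower (-0.84) and GP9 was too low to test. The highest levels were those of the T cell gene CD3D at 1400.1 ± 133 in knockout and 1040 ± 22.7 in control cells and the epithelial gene EPCAM at 1936 ± 96.9 in knockout and 1349 ± 78.2 in control cells. Their part in the results below was not tested, and in bulk RNA fewer cells of a type and less RNA per cell cannot be told apart.

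Of the 91 members, 85 had a mean of at least 10 and were tested. In knockout cells 32 of them were higher, 45 lower and 8 did not pass, so that 90.6% were called, against 94.1% of all 7516 tested genes. Across all tested genes 47.3% were higher and 46.7% lower. The 77 calls among the members are thus no more than the selected table gives anywhere, and the families are described by direction and size. Counts by direction follow, and differences between the families were not tested. Homeobox genes had 13 higher and 9 lower members at a median of 0.38 on the log2 scale, bHLH genes 7 higher and 16 lower (-0.45), bZIP genes 7 higher and 13 lower (-0.23) and ETS genes 5 higher and 7 lower (-0.41), beside a median of 0.14 over all tested genes. The homeobox counts rested on single libraries, with 8 higher and 9 lower without knockout library 2, 9 and 10 without knockout library 3, and 9 and 9 without control library 1. A change of at least 1 on the log2 scale was called in 21 members, 8 higher and 13 lower, and 8 of the lower ones were bHLH genes. The share of all tested genes with a called change of that size was 19%.

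**Figure D1:**
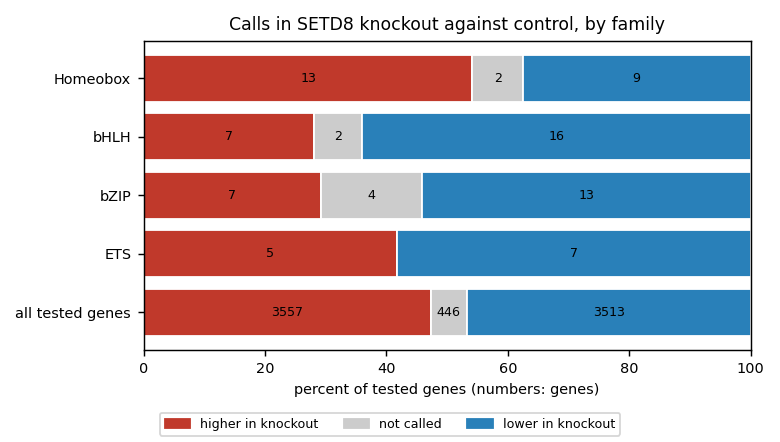
Share of tested genes called higher (red), lower (blue) or not called (grey) in SETD8 knockout against control cells, for each family and for all tested genes (limma-trend adjusted p below 0.05, 3 libraries per group, with the number of genes in each bar). With all libraries, homeobox genes have 13 higher and 9 lower members (8 and 9 without knockout library 2), and bHLH genes 7 higher and 16 lower members.

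The groups overlapped in 2 of the 85 tested members, HOXC10 and MYC. The other 83 had every knockout library on one side of every control library, a pattern that 95.4% of all tested genes shared.

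**Figure D2:**
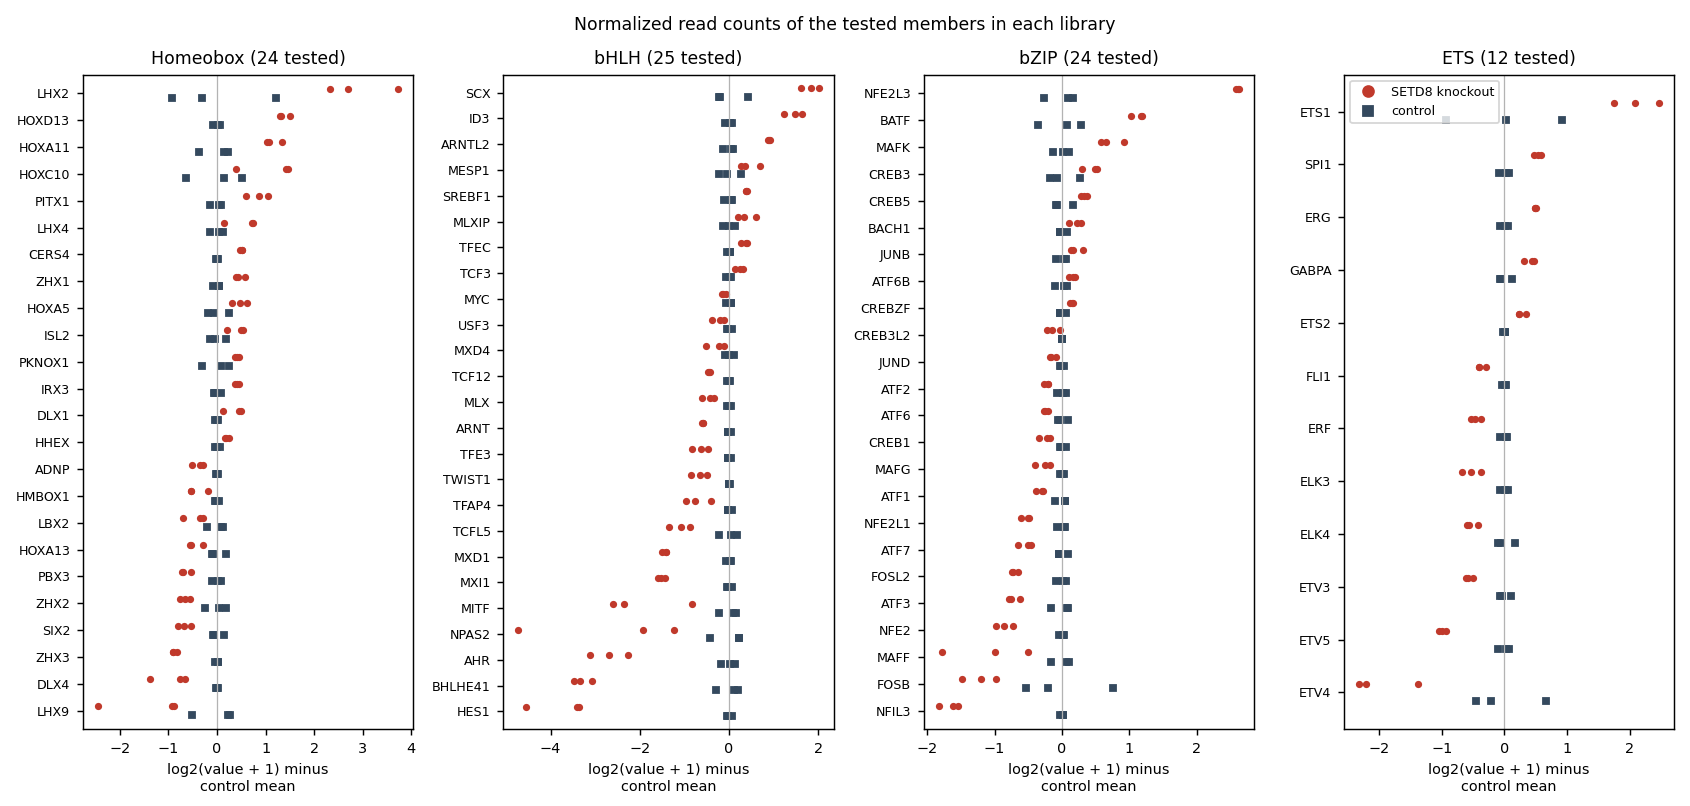
Normalized read counts of each tested member in every library, on the log2(value + 1) scale minus the mean of the control libraries (red circles, 3 SETD8 knockout libraries, above blue squares, 3 control libraries). HES1, BHLHE41 and NFE2L3 stand farthest from their control libraries among members with a mean of at least 50, and LHX2, NPAS2, MITF and ETS1 spread widely on few reads.

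Among homeobox genes with a mean of at least 50, the 2 largest changes were rises of posterior HOX genes. HOXD13, a posterior HOX gene of limb and urogenital development (ENSG00000128714, chromosome 2, 176092891 to 176095938), read 655, 753 and 660.2 in the knockout libraries, against 268, 249.9 and 275 in the control libraries. Its log2 fold change was 1.38 (SE 0.10, adjusted p = 3.05e-10), and the control libraries lay within a narrow band far below the knockout ones. HOXA11, a posterior gene of the HOXA cluster, read 193, 240.3 and 199 in the knockout libraries, against 72.6, 104 and 111 in the control libraries (log2 fold change 1.14, SE 0.18, adjusted p = 2.15e-05). HOXA13, its neighbour at the end of the same cluster, went the other way at 188, 185 and 223 in the knockout libraries, against 259, 310.1 and 256 in the control libraries (log2 fold change -0.47, adjusted p = 0.0091). Adjacent posterior genes of 1 cluster therefore had opposite signs. HOXA11 shares its locus with HOXA11-AS, which was listed at 90.0 in knockout and 48.0 in control cells, and without strand in the counting the pair cannot be told apart. HOXA5, an anterior gene of the cluster, was higher at 196, 178 and 159 in the knockout libraries, against 123, 112 and 152 in the control libraries (log2 fold change 0.47, adjusted p = 0.0313). HOXC10 read 17.7, 38.7 and 37.4 in the knockout libraries, against 8.18, 19.4 and 14.9 in the control libraries, and with overlapping groups it did not pass (log2 fold change 1.09, adjusted p = 0.0554).

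The start of HOXD13 is shown because it is the member with the highest rise among homeobox genes with a mean of at least 50. The bases are those before its annotated start in RefSeq (GRCh38.p14, plus strand, chr2:176092471-176092720), with capitals on an E-box, CACGTG, the site bHLH dimers read.
HOXD13: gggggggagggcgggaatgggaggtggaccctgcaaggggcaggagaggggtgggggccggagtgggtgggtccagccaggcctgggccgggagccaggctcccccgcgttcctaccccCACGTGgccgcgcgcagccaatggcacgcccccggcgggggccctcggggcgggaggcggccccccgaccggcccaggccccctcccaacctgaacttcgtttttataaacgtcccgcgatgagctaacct
Of 18 homeobox members with a promoter in the RefSeq table, HOXD13 alone held CACGTG in these 250 bases, and 7.73% of all 27305 genes with an entry did. A match is a description of letters and not a bound site.

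The TALE class, which holds the PBX partners of HOX proteins and also the Iroquois gene IRX3, was divided in this fit. With the median of neighbouring genes removed PBX3 was at -0.014 and PKNOX1 at 0.0014, neither of them called, while IRX3 was at 0.70 (adjusted p = 3.08e-08). PBX3, a TALE partner of HOX proteins that is highly expressed in several leukaemias, read 377, 334 and 338 in the knockout libraries, against 576, 513 and 558 in the control libraries (log2 fold change -0.65, SE 0.10, adjusted p = 1.64e-05). IRX3, an Iroquois gene, read 1309, 1354 and 1389 in the knockout libraries, against 995, 1083 and 981 in the control libraries, all of them higher (log2 fold change 0.41, adjusted p = 5.79e-05). PKNOX1, another PBX partner, had a log2 fold change of 0.41 (adjusted p = 0.0233) and a wide spread in control cells, from 184 to 270.5.

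LIM homeodomain genes, which direct neuronal and pituitary fates and of which LHX2 is known in blood progenitors, were 3 higher and 1 lower. LHX4, a pituitary factor, read 219, 331 and 325 in the knockout libraries, against 214, 201 and 177 in the control libraries. Knockout library 1 sat just above the control libraries, the other 2 well above, and the log2 fold change was 0.54 (SE 0.15, adjusted p = 0.00734). LHX2 rested on few reads, at 49.0, 17.9 and 23.3 in the knockout libraries, against 2.04, 7.78 and 0.991 in the control libraries, and its log2 fold change was 2.92 (adjusted p = 0.000588). ISL2, a motor neuron factor, was higher by 0.42 (adjusted p = 0.0325), and LHX9, a gonadal factor, read 3.13, 10.9 and 11.2 in the knockout libraries, against 25.5, 26.3 and 14.9 in the control libraries and was lower, with a log2 fold change of -1.42 (adjusted p = 0.0371).

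Genes that join zinc fingers to homeodomains went in both directions within 1 small family. ZHX3, a nuclear repressor, read 1482, 1490.4 and 1580 in the knockout libraries, against 2681, 2831 and 2829 in the control libraries (log2 fold change -0.87, SE 0.060, adjusted p = 9.20e-11). Its relative ZHX2 was lower at 116, 100.3 and 107 in the knockout libraries, against 195, 177 and 145 in the control libraries (log2 fold change -0.66, adjusted p = 0.00334). ZHX1, which dimerizes with both, was higher at 2300.3, 2016 and 2064 in the knockout libraries, against 1579, 1570.2 and 1459 in the control libraries (log2 fold change 0.47, adjusted p = 5.12e-06). The ZHX genes thus split into 1 higher and 2 lower in this fit. The groups did not overlap in any of the 3, as was true of 95.4% of all tested genes. With the median of neighbouring genes removed ZHX1 was at 0.14 (adjusted p = 0.195), while ZHX3 and ZHX2 stayed lower at -0.31 and -1.04. With the length trend removed as well, ZHX3 was at -0.15 (adjusted p = 0.0633). ZHX3 overlaps PLCG1 on the opposite strand, which was at 1757 in knockout and 2688 in control cells. ADNP, a chromatin-binding homeodomain protein and the homeobox member with the highest mean, read 2254, 1941 and 2159 in the knockout libraries, against 2795, 2726 and 2779.7 in the control libraries, a log2 fold change of -0.39 (adjusted p = 2.73e-05).

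The remaining homeobox genes serve varied organs. PITX1, a hindlimb and pituitary gene, read 324, 444 and 391 in the knockout libraries, against 223, 229 and 195 in the control libraries (log2 fold change 0.83, SE 0.13, adjusted p = 2.12e-05). CERS4, a ceramide synthase that carries a homeobox-like domain and is an enzyme rather than a known regulator of transcription, read 779.6, 759 and 777 in the knockout libraries, against 556, 543 and 536 in the control libraries (log2 fold change 0.50, adjusted p = 3.12e-05). Both had every knockout library above the control libraries. DLX4, a distal-less gene, read 33.4, 51.6 and 56.0 in the knockout libraries, against 87.9, 88.5 and 90.2 in the control libraries (log2 fold change -0.94, adjusted p = 0.00368). SIX2, which maintains nephron progenitors, read 116, 138 and 126 in the knockout libraries, against 192, 189.6 and 224 in the control libraries (log2 fold change -0.67, adjusted p = 0.00139). Another distal-less gene, DLX1, was higher, at 0.35 (adjusted p = 0.00593), where DLX4 was lower. With the median of neighbouring genes removed DLX4 was at -0.34 (adjusted p = 0.477). HHEX, a homeobox gene required in early blood and endothelium, rose by 0.20 (adjusted p = 0.031) and HMBOX1, which binds telomeric repeats, was lower, at -0.42 (adjusted p = 0.00132). LBX2 did not pass at -0.44 (adjusted p = 0.0592). HOXB3 and TLX2, under the mean of 10, had 13 and 25 reads over the knockout libraries and 0 over the control libraries, and RHOXF2 had 0 over the knockout and 14 over the control libraries. Their highest normalized values were 5.21, 12.9 and 9.91.

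Of 23 genes written as chromatin regulators of HOX genes, 20 were tested, 6 higher and 13 lower, and their median was -0.32. For this and the later lists the share over all tested genes was 47.3% higher and 46.7% lower, and no list was tested as a set. The largest changes were in KDM6B, a demethylase of histone H3 lysine 27 (702 ± 112 in knockout and 1386 ± 113 in control cells, log2 fold change -0.99), KAT7, an acetyltransferase (1509 ± 74.4 in knockout and 2854 ± 61.9 in control cells, -0.92), and JARID2, a Polycomb subunit (2189 ± 113 in knockout and 3646 ± 69.9 in control cells, -0.74). Mean and SD here and below are over 3 libraries in each group.

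Single libraries decided several homeobox calls. Without knockout library 2, the higher members fell in number to 8, against 13 with all libraries. DLX1 ended there at 0.29 (adjusted p = 0.057), LHX4 at 0.44 (adjusted p = 0.064) and, without knockout library 3, at 0.45 (adjusted p = 0.0501). HOXA13 ended without control library 2 at -0.38 (adjusted p = 0.0741). PKNOX1 had 0.25 (adjusted p = 0.179) without control library 1, and its call also ended without knockout library 2 or 3. LHX9 had -0.90 (adjusted p = 0.183) without knockout library 1 and ended without control library 1 or 2 too. HHEX lost its call without knockout library 2 or 3 or control library 1 or 3, and HOXA5 and ISL2 each lost theirs without any 1 of 4 libraries (knockout 1 and 2 and control 1 and 2 for HOXA5, knockout 1 and 3 and control 1 and 2 for ISL2). HOXC10 passed at 1.44 (adjusted p = 0.015) without knockout library 1 and at 1.34 (adjusted p = 0.036) without control library 2. LBX2 passed without knockout library 3, at -0.52 (adjusted p = 0.049), or control library 1, at -0.55 (adjusted p = 0.0375).

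The bHLH genes were mostly lower in knockout cells, and the sharpest falls were in repressors. HES1, the repressor that Notch signalling induces (ENSG00000114315, chromosome 3, 194136145 to 194138732), read 56.3, 58.6 and 25.2 in the knockout libraries, against 587, 642 and 603 in the control libraries. The log2 fold change was -3.77 with an SE of 0.22 and an adjusted p of 6.41e-12, the greatest fall among all members, and the lowest control library was about an order of magnitude above the highest knockout library. BHLHE41, also called DEC2, a repressor of the circadian clock, read 21.9, 23.8 and 28.9 in the knockout libraries, against 288, 204 and 272 in the control libraries (log2 fold change -3.30, SE 0.22, adjusted p = 4.72e-11). Both repressors fell together, in every knockout library.

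The bases before the start of both genes are shown since HES1 is known to repress its own gene through N-box sites and BHLHE41 reads E-boxes. Capitals mark CACNAG (N-box) and CACGTG (E-box) on either strand. The HES1 run is chr3:194135898-194136147 on the plus strand and the BHLHE41 run chr12:26125038-26125287 on the minus strand, both from RefSeq on GRCh38.p14. The RefSeq start of BHLHE41 lies 90 bases inside the gene by its deposited coordinates, and the E-box lies inside that gene too.
HES1: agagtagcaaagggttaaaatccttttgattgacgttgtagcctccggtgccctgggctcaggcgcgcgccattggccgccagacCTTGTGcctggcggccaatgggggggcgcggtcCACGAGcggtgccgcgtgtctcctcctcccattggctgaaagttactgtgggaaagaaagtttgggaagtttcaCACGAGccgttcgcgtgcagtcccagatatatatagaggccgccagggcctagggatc
BHLHE41: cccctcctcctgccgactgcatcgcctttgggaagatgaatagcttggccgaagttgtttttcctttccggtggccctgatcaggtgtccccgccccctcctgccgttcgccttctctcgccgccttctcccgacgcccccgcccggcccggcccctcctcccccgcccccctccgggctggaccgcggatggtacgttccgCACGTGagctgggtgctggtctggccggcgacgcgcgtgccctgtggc
HES1 held 3 N-boxes in these 250 bases and BHLHE41 held 1 E-box. Of 19 bHLH members with an entry, 5 held an E-box (BHLHE41, TCF12, AHR, MLX and MXD4), against 7.73% of all genes with an entry. All 5 were lower in knockout cells, as were 64% of the tested bHLH members. In the other families, ATF7, MAFF and MAFG held an E-box and were lower, HOXD13 was higher and ATF6B was not called. A link between the site and the direction was not tested. An N-box stood in 7 of the 19, against 36.6% of all genes with an entry.

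In the network around MYC and its partner MAX, the genes of the competing MXD class were lower. MXI1, which competes with MYC for MAX, read 828, 745 and 782 in the knockout libraries, against 2162, 2219 and 2342 in the control libraries (log2 fold change -1.51, SE 0.068, adjusted p = 7.36e-14). MXD1, another such competitor, read 539.9, 574 and 571 in the knockout libraries, against 1537, 1577 and 1465 in the control libraries (log2 fold change -1.44, SE 0.074, adjusted p = 6.64e-13). For both, every knockout library was far below every control library. The neighbouring genes had a median of -0.83 for MXI1 and -0.37 for MXD1. With that median removed MXI1 was at -0.69 and MXD1 at -1.08, both still called lower. MXD4, the third member of that class in the table, had -0.28 (adjusted p = 0.0125). MYC, the member with the highest mean of all 91, read 9939, 9456 and 9343 in the knockout libraries, against 9908, 10747 and 10768 in the control libraries. Its groups overlapped and it did not pass (log2 fold change -0.13, adjusted p = 0.0863). In the authors' own test MYC had an adjusted p of 0.0437. It was called lower at -0.44 (adjusted p = 1.38e-06) with the median of neighbouring genes removed, at -0.23 (adjusted p = 0.00182) with the trend of gene length removed and at -0.52 (adjusted p = 1.55e-07) with both removed. The removed trends entered as fixed numbers, so those p-values reflect scatter among libraries only. The MAX-like partner MLX and its dimer mate MLXIP, or MondoA, which act in the response to glucose, went apart. MLX had a log2 fold change of -0.45 (adjusted p = 5.96e-05). MLXIP read 2462, 2708 and 3278 in the knockout libraries, against 1969, 2348 and 2152 in the control libraries and had 0.38 (adjusted p = 0.000776). With the median of neighbouring genes removed MLX was at 0.073 and MLXIP at 0.099, neither of them called, so the opposite signs did not hold there.

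E proteins are the common dimer partners of tissue-specific bHLH factors, and ID proteins, which lack the basic region, sequester them. ID3, the only listed ID gene, read 163, 122 and 146 in the knockout libraries, against 52.1, 48.6 and 54.5 in the control libraries (log2 fold change 1.45, SE 0.20, adjusted p = 4.52e-06). TCF3, which encodes E2A, read 4443, 3929 and 4198 in the knockout libraries, against 3388, 3619.7 and 3697 in the control libraries and was slightly higher (log2 fold change 0.23, adjusted p = 0.0035). TCF12, or HEB, had -0.45 (adjusted p = 6.38e-07), so the listed E proteins moved in opposite directions in this fit. With the median of neighbouring genes removed they did not, since TCF3 was at -0.24 (adjusted p = 0.00329) and TCF12 at -0.047 (adjusted p = 1). Among 12 written partners of E proteins, 5 were tested, 1 higher and 3 lower. These were RUNX1 (log2 fold change 0.65), whose reads may include those of the fusion transcript, SIN3A, a corepressor scaffold (-0.65), CBFA2T3, a corepressor of the same family as RUNX1T1 (-0.80), and LDB1, a bridging protein (-0.36), named after its value was seen, while RUNX1T1 did not pass (0.15, adjusted p = 0.0542).

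bHLH-PAS genes sense ligands, oxygen and time of day, and 3 of the 4 tested were lower. AHR, the receptor for dioxin and other aromatic ligands, read 11.5, 15.9 and 8.40 in the knockout libraries, against 81.8, 71.0 and 88.2 in the control libraries (log2 fold change -2.69, SE 0.33, adjusted p = 6.79e-07). ARNT, the dimer partner of AHR and of the HIF alpha subunits, read 773, 773 and 754 in the knockout libraries, against 1187, 1133 and 1139 in the control libraries (log2 fold change -0.59, adjusted p = 6.56e-07). The receptor and its partner were thus both lower, the receptor the more so. ARNTL2, a paralogue of the clock gene ARNTL, read 375, 383 and 385 in the knockout libraries, against 213, 187 and 216 in the control libraries and was higher (log2 fold change 0.89, SE 0.12, adjusted p = 2.31e-06). NPAS2, a paralogue of CLOCK, read 0, 5.96 and 10.3 in the knockout libraries, against 29.6, 18.5 and 29.7 in the control libraries. Its log2 fold change of -2.62 (adjusted p = 0.00445) rests on few reads and on a 0 in 1 library, and was -1.57 without knockout library 1. ARNT2, under the mean of 10, had 9 reads over the knockout and 37 over the control libraries, with a highest normalized value of 15.9.

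Genes that work with these dimers were set beside them. Their counts are descriptions of short lists, not tested as sets, beside 47.3% of all tested genes higher and 46.7% lower. Of 14 written clock genes outside both families, 11 were tested, 3 higher and 8 lower, with a median of -0.43. PER1, a clock repressor, was at 311 ± 43.3 in knockout and 699 ± 57.1 in control cells (log2 fold change -1.17), and CRY1, its partner, at 184 ± 23.2 in knockout and 391 ± 17.3 in control cells (-1.09). Of 17 written genes of the HIF pathway, which ARNT serves, 10 were tested, 1 higher and 8 lower, with a median of -0.40. ADM, the hormone adrenomedullin, was at 517 ± 6.31 in knockout and 1112 ± 48.6 in control cells (log2 fold change -1.10), ANKRD37 at 149 ± 26.9 in knockout and 301 ± 17.9 in control cells (-1.02), and the histone demethylase KDM3A at 3859 ± 75.8 in knockout and 7488 ± 169 in control cells (-0.96).

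In the written group of SREBF, USF, MiT and TFAP4 genes, with TCFL5 placed beside them, 5 of 7 were lower. TCFL5, known from spermatogenesis in the mouse, read 265, 230.4 and 192 in the knockout libraries, against 552, 503 and 421 in the control libraries (log2 fold change -1.10, SE 0.13, adjusted p = 4.40e-07). TFAP4, an E-box factor and MYC target, read 477, 375 and 323 in the knockout libraries, against 621, 658 and 620.3 in the control libraries (log2 fold change -0.71, adjusted p = 2.95e-05). The 3 libraries of each group stayed apart for both. SREBF1, whose protein drives fatty acid synthesis, was higher at 5082, 5069 and 5209 in the knockout libraries, against 3639, 4052 and 4093 in the control libraries (log2 fold change 0.38, adjusted p = 1.06e-05). In the MiT group, which controls lysosomal and melanocyte genes, TFEC read 970.4, 944 and 883 in the knockout libraries, against 744, 704 and 746 in the control libraries (log2 fold change 0.35, adjusted p = 0.000874). TFE3 of the same group was lower (log2 fold change -0.64, adjusted p = 5.24e-06), and so was MITF, at 6.41 in knockout and 23.2 in control cells (log2 fold change -1.93, adjusted p = 0.00673). The MiT group therefore held 1 higher and 2 lower genes. USF3 was lower (log2 fold change -0.23, adjusted p = 0.0221). Of 16 written genes of the SREBP pathway, 13 were tested, 5 higher and 7 lower. HMGCS1, of cholesterol synthesis, was at 2775 ± 100 in knockout and 6822 ± 407 in control cells (log2 fold change -1.30), and SCD, a fatty acid desaturase, at 9957 ± 163 in knockout and 23346 ± 300.1 in control cells (-1.23). MBTPS1, the protease that releases SREBP, was at 3610.2 ± 277 in knockout and 2308 ± 49.9 in control cells (0.64).

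Tissue-specific bHLH genes were read at low levels. TWIST1, a mesenchymal factor, read 80.3, 102 and 92.4 in the knockout libraries, against 145, 147 and 145 in the control libraries and was lower (log2 fold change -0.67, adjusted p = 0.00426). SCX, a tendon factor, read 19.8, 16.9 and 22.4 in the knockout libraries, against 4.09, 6.81 and 3.96 in the control libraries and was higher by 1.82 (adjusted p = 0.00791). It overlaps BOP1 on the opposite strand, which was at 6610 in knockout and 3706 in control cells. MESP1, a gene of early heart mesoderm, missed the threshold at 0.44 (adjusted p = 0.0504). TCF24 had 55 reads over the knockout and 2 over the control libraries, a highest normalized value of 24.8, and was not tested.

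In the bHLH family MXD4 lost its call without knockout library 1, at -0.17 (adjusted p = 0.112), and without control library 2, and USF3 without knockout library 1 or 2 or control library 2 or 3. MESP1 passed without knockout library 3, at 0.52 (adjusted p = 0.0398), and without control library 2, at 0.57 (adjusted p = 0.0228). MYC passed at -0.16 (adjusted p = 0.0366) without knockout library 1 and at -0.17 (adjusted p = 0.0357) without control library 1.

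Among the bZIP genes, 2 were higher and 3 lower by at least 1 on the log2 scale. NFE2L3, or NRF3, a relative of the stress factor NRF2 (ENSG00000050344, chromosome 7, 26152240 to 26187125), read 859, 873 and 886 in the knockout libraries, against 152, 119 and 161 in the control libraries. Its log2 fold change of 2.60 (SE 0.12, adjusted p = 9.94e-14) was a 6.08-fold rise, with all knockout libraries close together. NFE2L3 overlaps HNRNPA2B1 on the opposite strand, which was at 28127 in knockout and 19219 in control cells. NFIL3, a repressor that acts in natural killer cell development and in the clock, read 216, 206 and 176 in the knockout libraries, against 616, 639 and 635 in the control libraries (log2 fold change -1.66, SE 0.11, adjusted p = 5.83e-11). The bases before both starts are given as the ends of the bZIP range (RefSeq, GRCh38.p14).
NFE2L3, chr7:26151948-26152197 on the plus strand: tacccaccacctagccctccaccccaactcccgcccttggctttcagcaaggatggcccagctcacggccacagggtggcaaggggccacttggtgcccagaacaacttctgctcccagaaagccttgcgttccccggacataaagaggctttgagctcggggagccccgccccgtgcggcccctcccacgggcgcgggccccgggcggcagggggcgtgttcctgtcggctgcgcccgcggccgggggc
NFIL3, chr9:91423833-91424082 on the minus strand: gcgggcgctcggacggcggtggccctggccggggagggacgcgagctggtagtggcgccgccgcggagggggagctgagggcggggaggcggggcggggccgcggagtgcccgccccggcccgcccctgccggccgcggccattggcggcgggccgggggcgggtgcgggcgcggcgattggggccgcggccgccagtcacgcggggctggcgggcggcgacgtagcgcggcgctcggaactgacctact
Neither run holds an E-box, an N-box, a CRE (TGACGTCA), the ETS site CCGGAAGT or the HOX-PBX site TGATTNAT on either strand, so both are in lower case throughout. The CRE stood in 3 of 21 bZIP members with an entry, MAFF, JUND and CREB3L2, and in 2.03% of all genes.

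Small MAF proteins, which have no activation domain, and the NRF, NFE2 and BACH proteins pair with each other on antioxidant-type sites. MAFK read 605, 759 and 632 in the knockout libraries, against 368, 408 and 434 in the control libraries (log2 fold change 0.72, SE 0.10, adjusted p = 6.45e-06). MAFF read 63.6, 89.4 and 36.4 in the knockout libraries, against 137, 114 and 134 in the control libraries (log2 fold change -1.10, SE 0.25, adjusted p = 0.00134). MAFG was lower (log2 fold change -0.28, adjusted p = 0.00306), so the small MAF genes held 1 higher and 2 lower members. With the median of neighbouring genes removed MAFG was at 0.055 and not called. NFE2, of erythroid and megakaryocyte genes, read 129, 141 and 154 in the knockout libraries, against 259.6, 262 and 248 in the control libraries (log2 fold change -0.86, SE 0.14, adjusted p = 3.49e-05). NFE2L1, which induces proteasome genes and has the highest mean in the family, read 5702, 6244 and 6186 in the knockout libraries, against 8269, 8997 and 8957 in the control libraries (log2 fold change -0.53, adjusted p = 9.69e-08). BACH1, a haem-binding repressor of antioxidant genes, read 1031, 1123 and 1168 in the knockout libraries, against 938, 938 and 1009 in the control libraries (log2 fold change 0.20, adjusted p = 0.0368). Partners on the same sites thus moved both ways. Of 14 written genes of the NRF2 pathway, 8 were tested, 7 higher and 1 lower, with a median of 0.48. This short list was not tested as a set, and 47.3% of all tested genes were higher. TALDO1, of the pentose phosphate pathway, was at 4657 ± 238 in knockout and 2953 ± 88.4 in control cells (log2 fold change 0.66), SLC7A11, the cystine transporter, at 534 ± 46.3 in knockout and 847 ± 173 in control cells (-0.65), and CUL3, the scaffold of the ligase that degrades NRF2, at 952 ± 13.1 in knockout and 671 ± 30.3 in control cells (0.51).

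AP-1 members other than JUN were divided. ATF3, a stress-induced factor, read 441, 451 and 499 in the knockout libraries, against 686, 806 and 809.6 in the control libraries (log2 fold change -0.72, SE 0.094, adjusted p = 1.46e-06). FOSL2, a FOS-related subunit, read 2521, 2485 and 2654 in the knockout libraries, against 3933, 4237 and 4362 in the control libraries (log2 fold change -0.71, SE 0.059, adjusted p = 1.63e-09). BATF, which lacks an activation domain and acts in lymphoid cells, read 191, 211 and 212 in the knockout libraries, against 98.1, 113 and 72.3 in the control libraries (log2 fold change 1.13, SE 0.18, adjusted p = 2.13e-05). ATF3 and FOSL2 were lower and BATF higher in every knockout library. FOSB, at 19.5 in knockout and 50.1 in control cells, was lower (log2 fold change -1.23, adjusted p = 0.00945). JUNB was higher by 0.20 (adjusted p = 0.0252), and JUND missed the threshold (-0.14, adjusted p = 0.0619). JUND was called lower at -0.15 (adjusted p = 0.046) with TMM scaling, at -0.15 (adjusted p = 0.0492) by edgeR, at -0.46 (adjusted p = 1.66e-06) with the median of neighbouring genes removed and at -0.36 (adjusted p = 2.91e-05) with the trend of gene length removed. Of 17 written genes of the immediate response to growth factors, 10 were tested, 4 higher and 6 lower. EGR1, an early zinc finger factor, was at 46.1 ± 12.4 in knockout and 140.2 ± 7.50 in control cells (log2 fold change -1.62), and the MAP kinase phosphatases DUSP4 and DUSP1 were at 872 ± 102 in knockout and 422 ± 81.5 in control cells (1.06) and at 89.7 ± 19.1 in knockout and 174 ± 27.1 in control cells (-0.96).

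CREB and ATF genes, which bind CRE sites, had small differences. ATF7, an ATF2 relative, read 471, 519 and 538 in the knockout libraries, against 718, 785 and 717 in the control libraries (log2 fold change -0.54, adjusted p = 3.40e-05), the largest fall of the group. ATF1, CREB1, ATF6 and ATF2 were lower, on the log2 scale at -0.32, -0.24, -0.24 and -0.22 (adjusted p at most 0.0184). ATF6 encodes a sensor of the endoplasmic reticulum that is cut free under stress. CREB5 read 272, 289 and 280.1 in the knockout libraries, against 249, 213 and 210.1 in the control libraries, at the threshold itself (log2 fold change 0.33, adjusted p = 0.04997), and its call ended in 14 of the 18 alternatives. CREB3, bound to the membrane of the endoplasmic reticulum, read 444, 435 and 383 in the knockout libraries, against 273, 373 and 293 in the control libraries (log2 fold change 0.43, adjusted p = 0.00695). It overlaps TLN1 on the opposite strand, which was at 12038 in knockout and 8998 in control cells (log2 fold change 0.42). CREBZF, ATF6B and CREB3L2 did not pass, at 0.14, 0.15 and -0.13 (adjusted p = 0.0575, 0.0556 and 0.101).

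FOSB lost its call without control library 2, at -0.85 (adjusted p = 0.129), that library standing at 78.8 beside 39.9 and 31.7 in the other control libraries. CREB3 ended without control library 1, at 0.34 (adjusted p = 0.052), JUNB without knockout library 1, at 0.15 (adjusted p = 0.138), or control library 1, and CREB1 without knockout library 1, at -0.20 (adjusted p = 0.0769), or control library 3. BACH1 ended without knockout library 2 or 3 or control library 1 or 2, with adjusted p from 0.105 to 0.155, and CREB5 without any library other than control 1. ATF6B passed without control library 3, at 0.19 (adjusted p = 0.0485), CREBZF without control library 1, at 0.18 (adjusted p = 0.0334), and CREB3L2 without knockout library 3, at -0.18 (adjusted p = 0.0217).

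All 12 tested ETS genes were called, 5 higher and 7 lower, in a table where 94.1% of all tested genes were called. SPI1, or PU.1, the myeloid and B cell master regulator (ENSG00000066336, chromosome 11, 47354860 to 47378576), read 3693, 3572 and 3425 in the knockout libraries, against 2324, 2583 and 2514 in the control libraries (log2 fold change 0.53, SE 0.060, adjusted p = 2.04e-07). Its value was 0.17 (adjusted p = 0.0462) with the median of neighbouring genes removed and 0.028 (adjusted p = 1) with the length trend removed as well, which ended the call. ERG, a blood stem cell factor, read 2708, 2701 and 2729.6 in the knockout libraries, against 1849, 1939.6 and 2019 in the control libraries (log2 fold change 0.49, SE 0.059, adjusted p = 5.47e-07). FLI1, the close relative of ERG and the ETS gene with the highest mean, went the other way at 3868, 3579 and 3593 in the knockout libraries, against 4639, 4785 and 4816 in the control libraries (log2 fold change -0.37, SE 0.056, adjusted p = 1.12e-05). ERG and FLI1, which bind very similar sites, therefore had opposite signs in this fit. The groups overlapped in neither gene, as was true of 95.4% of all tested genes. However, ERG was at 0.075 (adjusted p = 0.732) with the median of neighbouring genes removed. ETS2, another relative, read 1687, 1562 and 1571 in the knockout libraries, against 1342, 1349 and 1318 in the control libraries (log2 fold change 0.27, adjusted p = 0.00209). GABPA, an activator of many mitochondrial and housekeeping genes, read 984, 960.2 and 877 in the knockout libraries, against 766, 684 and 678 in the control libraries (log2 fold change 0.41, adjusted p = 0.000328). ERG, ETS2 and GABPA lie on chromosome 21. ETS1 had few reads, at 25.0, 31.8 and 42.0 in the knockout libraries, against 3.07, 13.6 and 6.94 in the control libraries, and a log2 fold change of 2.09 (adjusted p = 0.00157).

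The start of GABPA is shown as an ETS gene that holds the family's own site. Its RefSeq start lies 402 bases inside the gene by the deposited coordinates, so the whole run is inside that gene. The run is chr21:25734722-25734971 on the plus strand (RefSeq, GRCh38.p14), with capitals on 1 N-box and on ACTTCCGG, the reverse of CCGGAAGT.
GABPA: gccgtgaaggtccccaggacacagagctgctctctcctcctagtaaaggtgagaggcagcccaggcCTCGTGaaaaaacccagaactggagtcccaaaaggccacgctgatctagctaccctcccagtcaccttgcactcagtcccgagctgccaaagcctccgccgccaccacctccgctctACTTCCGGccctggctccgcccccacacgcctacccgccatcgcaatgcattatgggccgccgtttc
That site stood in 2 of 8 ETS members with an entry, GABPA and ELK4, in no member of the other families, and in 4.13% of all genes. GABPA overlaps ATP5PF on the opposite strand, which was at 1667 in knockout and 834 in control cells.

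The PEA3 subfamily, which growth factor signalling induces, was lower. ETV5 read 1143, 1053 and 1094 in the knockout libraries, against 2027, 2298 and 2219.8 in the control libraries (log2 fold change -0.99, SE 0.067, adjusted p = 7.27e-11), the greatest fall of an ETS gene with a mean of at least 50. ETV4, with few reads at 7.30, 7.94 and 14.9 in the knockout libraries, against 34.7, 29.2 and 64.4 in the control libraries, was lower (log2 fold change -1.97, adjusted p = 0.000694). ETV5 overlaps DGKG on the same strand, which was at 183 in knockout and 475 in control cells. ETV4 overlaps DHX8 on the opposite strand, which was at 989 in knockout and 1784 in control cells. The ternary complex factors, partners of SRF at growth factor response genes, were lower as well. ELK3 read 776, 633 and 697 in the knockout libraries, against 1053, 1012 and 963 in the control libraries (log2 fold change -0.53, adjusted p = 2.26e-05). ELK4 read 520.1, 534 and 587 in the knockout libraries, against 761, 885 and 734 in the control libraries (log2 fold change -0.53, adjusted p = 5.60e-05). The repressors ERF and ETV3 completed the lower genes. ERF read 1273, 1221 and 1355 in the knockout libraries, against 1681, 1805 and 1798 in the control libraries (log2 fold change -0.46, SE 0.066, adjusted p = 6.72e-06). ETV3 read 498, 508 and 539.7 in the knockout libraries, against 742, 819 and 725 in the control libraries (log2 fold change -0.56, SE 0.087, adjusted p = 1.60e-05). In all of these genes each knockout library lay below each control library. SPIB, a lymphoid relative of SPI1, had 37 reads over the knockout and 8 over the control libraries, a highest normalized value of 16.7, and was not tested.

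Of 15 written myeloid targets of C/EBP factors and PU.1, 12 were tested, 9 higher and 3 lower, with a median of 0.75. This short list was not tested as a set, and 47.3% of all tested genes were higher. The higher genes include CEBPA, itself a C/EBP factor and left out of the members. PRTN3, AZU1 and ELANE, all higher, lie close together on chromosome 19, with neighbouring genes at a median of 0.49. PRTN3, proteinase 3, was at 1754 ± 53.4 in knockout and 58.2 ± 8.27 in control cells (log2 fold change 4.90) and AZU1, azurocidin, at 305 ± 56.6 in knockout and 26.3 ± 5.57 in control cells (3.49). MPO, myeloperoxidase, was at 1541 ± 27.3 in knockout and 12254 ± 373 in control cells (-2.99), so granule genes went in both directions.

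Levels were compared between genes per kilobase of the deposited gene length. MYC stood first in control cells among all 85 tested members, at 3192 in knockout and 3490.3 in control cells. NFE2L1 was next at 1038 in knockout and 1501 in control cells, then JUND at 1271 in knockout and 1402 in control cells, SPI1 at 1722 in knockout and 1196 in control cells and JUNB at 924 in knockout and 803 in control cells. In knockout cells SPI1 thus stood above JUND and NFE2L1. HES1 dropped to the level of the little-read members, at 22.6 in knockout and 296 in control cells, and NFE2L3 rose to that of ATF2, at 205 in knockout and 33.8 in control cells, beside 207 in knockout and 241 in control cells for ATF2. Among homeobox genes HHEX was first in control cells at 436 in knockout and 380 in control cells, and HOXD13 was the HOX gene with the highest level in both groups, at 308 in knockout and 118 in control cells.

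**Figure D3:**
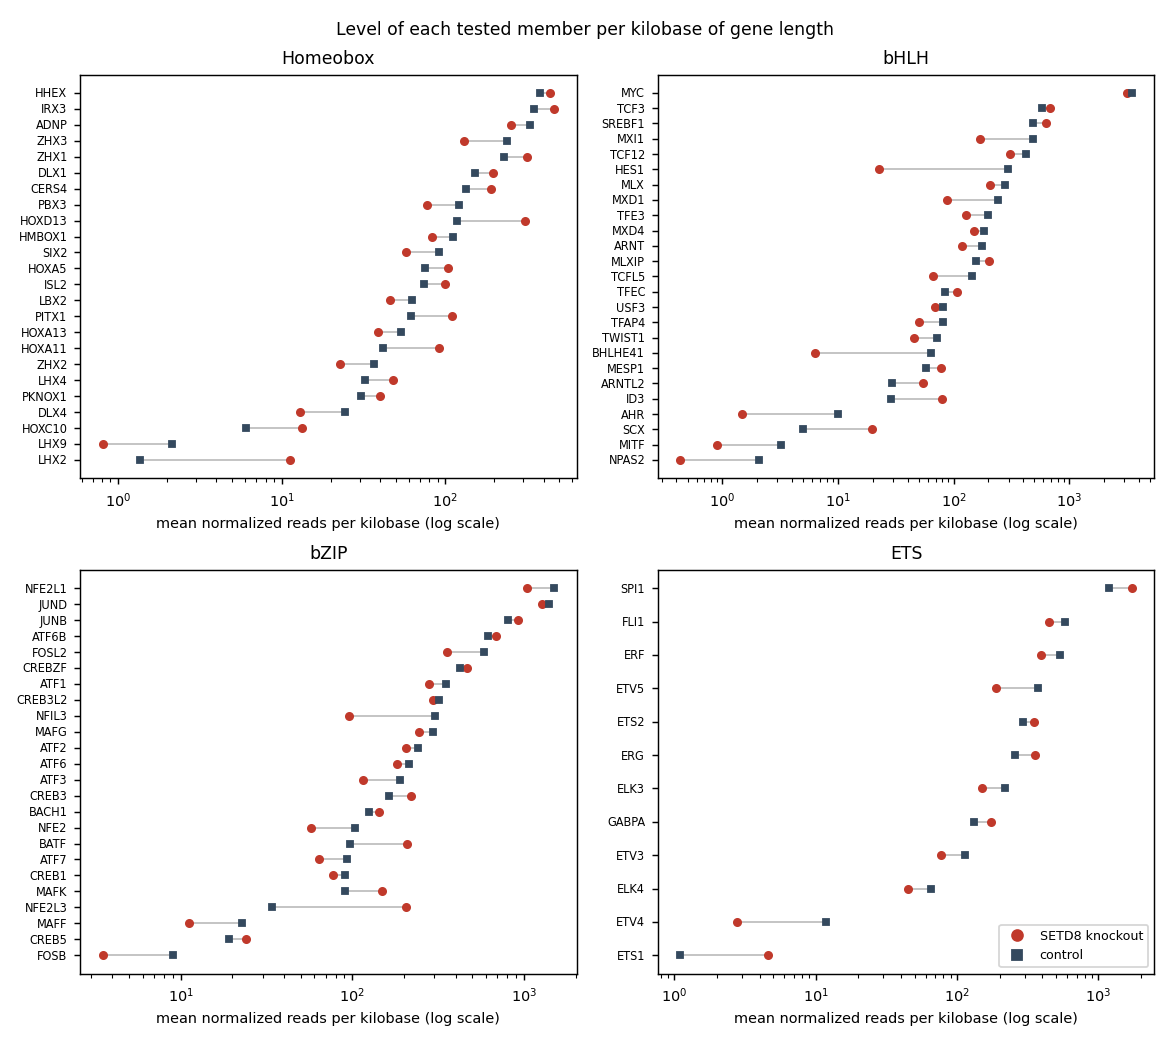
Mean normalized reads per kilobase of gene length (log scale) of each tested member, in 4 panels by family and ordered by the control level (red circles, SETD8 knockout, blue squares, control, each the mean of 3 libraries). MYC, SPI1, NFE2L1 and JUND hold the upper ends, and the long lines of HES1, BHLHE41, AHR and NFE2L3 mark large differences.

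Each member was also set beside the median log2 fold change of the other tested genes within 5 Mb. Of the 32 higher members, 21 (65.6%) lay among neighbours with a median above 0, against 72.6% of all higher genes. Of the 45 lower members, 25 (55.6%) lay among neighbours with a median below 0, against 57.8% of all lower genes. With the neighbours' median taken from the knockout libraries, 51 of the 77 calls (66.2%) stayed in the same direction, 14 ended and 12 turned in sign, 4 of them past the threshold. Of all called genes with enough neighbours, 58.2% stayed. Of the members not called before, MYC, JUND and CREBZF were then lower and MESP1 and CREB3L2 higher. CREBZF (-0.23, adjusted p = 0.00362) and CREB3L2 (0.17, adjusted p = 0.0444) turned in sign, and MESP1 was at 0.62 (adjusted p = 0.00606). That subtraction moved the median of all tested genes by -0.20. Among homeobox genes 13 of 22 calls stayed, among bHLH genes 17 of 23, among bZIP genes 12 of 20 and among ETS genes 9 of 12. PBX3, on chromosome 9, was at -0.014 (adjusted p = 1) and PKNOX1, on chromosome 21, at 0.0014 (adjusted p = 1). ERG was at 0.075 (adjusted p = 0.732) and GABPA at -0.073 (adjusted p = 1), both on chromosome 21. SIX2, DLX4, CERS4, ZHX1 and TFAP4 ended too, at -0.15, -0.34, 0.18, 0.14 and -0.21, as did MLXIP at 0.099, TCF12 at -0.047, SCX at 1.17, LHX9 at -1.07, CREB3 at 0.16 and ATF2 at -0.015. TCF3, ETS2, BACH1 and CREB1 turned and passed, at -0.24, -0.26, -0.39 and 0.27. The spread of the neighbours around their median does not enter these calls. The others that turned, below the threshold, were ADNP, HOXA5, GABPA, MLX, NFE2L1, MAFG, JUNB and CREB5.

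Other members stood clear of the genes around them. In all, 21 of 85 (24.7%) differed from their neighbours' median by at least 1 on the log2 scale, 10 of them bHLH genes, and 19% of all tested genes with enough neighbours did. HOXD13 rose among neighbours with a median of -0.21, BATF among -0.25, ARNTL2 among -0.39 and TFEC among -0.74. BHLHE41 fell among neighbours at 0.25, MITF at 0.26, MAFF at 0.41 and NFE2 at 0.24. HES1, with neighbours at -0.45, and NFE2L3, with neighbours at 0.49, shared the sign of their region and exceeded it. The part of chromosomal position in these differences was not tested, and the labels give no copy number.

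**Figure D4:**
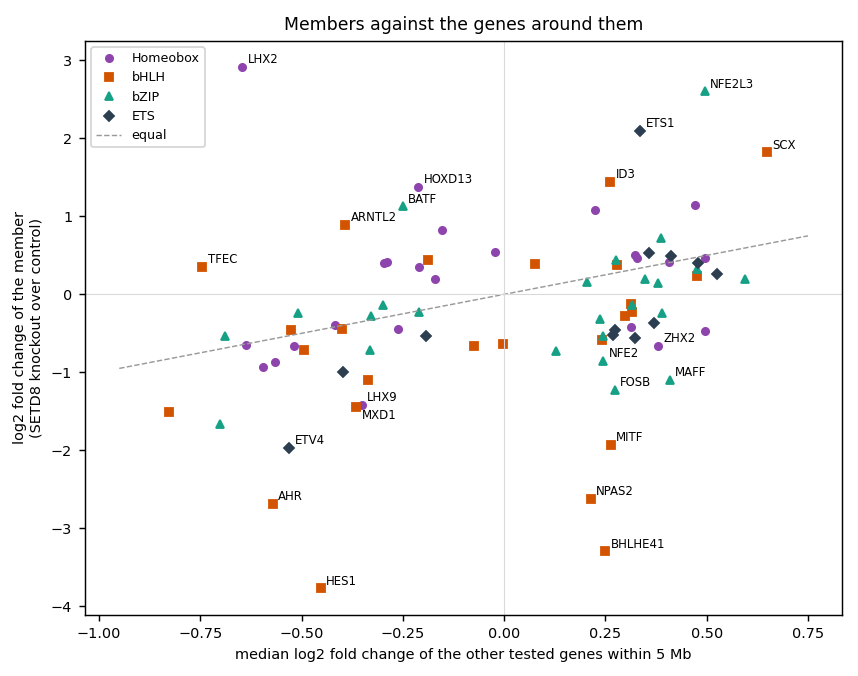
Log2 fold change of each tested member (y) against the median log2 fold change of the other tested genes within 5 Mb (x), SETD8 knockout over control, by family, with the dashed line where both are equal and names on members at least 1 from their neighbours. HES1, BHLHE41, AHR and NPAS2 lie far below the line and NFE2L3, LHX2 and HOXD13 far above it.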

How the data were processed

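Poly-T-selected RNA of 3 SETD8 knockout and 3 control libraries was sequenced from a directional NEBNext kit, per the labels' protocols. HISAT2, DESeq2 and build hg38 are named in the submitters' processing notes, while for the gene counter, versions and use of strand the sources used here give nothing. The deposited values per library are a signal, read counts divided by 1 size factor by the authors. Dividing by the smallest value gave whole reads within 0.001 for 100% of values. The authors also deposited a log2 fold change, p-values and adjusted p-values, used here to count 73 members past 0.05 and to find the number adjusted over, 19860. HHEX, PKNOX1, BACH1, ISL2, HOXA5, LHX9 and CREB5 were called here but did not pass in the authors' test. MYC, not called here, and TCF24 and TLX2, not tested here, passed in it. All 91 members have the same coordinates in GENCODE 29. Of them 65 overlap another annotated gene there, and 56 overlap a gene on the opposite strand. Only some of these overlaps are named above, and without strand in the counting such pairs cannot be told apart.

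Genes with a mean of at least 10 (7516, leaving out 467) went into a two-sided limma-trend fit of log2(value + 1) without a block (limma 3.58.1 under R 4.3.3), called at adjusted p below 0.05. The fit was tested on simulated data. Alternatives used edgeR 4.0.16 and DESeq2 1.42.0 on recovered reads, TMM scaling, other filters and pseudocounts, a block, left-out libraries and trends of neighbours (5 Mb, at least 5 genes) and of length (local regression, span 0.5). Removing both trends was added after seeing the data. The members, lists and named genes were chosen with earlier results of these data known. Values in every library were given for up to 6 higher and 6 lower called members per family with a mean of at least 50, and the one with the highest mean. Other genes were described by written roles. In each partner list up to 3 called genes were named by size of change (mean 50 or more), and for partners of E proteins all tested ones. For 1 gene of the clock list and 1 marker the value is not reported here. Promoter letters are RefSeq's (GRCh38.p14), matched by symbol for 66 of 91 members.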

Additional observations from a re-analysis of the deposited data

How the results depend on the processing

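The table holds only genes selected for a difference on these 6 libraries, which limits what a call adds, and 3 libraries per group leave calls of low genes open to single libraries. Of 86 genes (KMT5A and the tested members), 86 kept direction and call with a pseudocount of 0.5, 83 with 5, 84 with TMM scaling, 83 with edgeR's quasi-likelihood test and 84 with DESeq2's Wald test. No sign turned under these. Over all genes, edgeR on the recovered reads called 3548 higher and 3606 lower. The libraries' numbers do not pair them, since deviations of same-numbered libraries correlated at 0.0086, -0.0033 and -0.050, and with the replicate block 84 of the 86 genes kept their call. Leaving out 1 library gave 8 to 12 higher homeobox members, a homeobox median of 0.30 to 0.37 and a bZIP median of -0.24 to -0.20. With a mean of at least 50 the homeobox median was 0.35.

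With the neighbours' median removed, 4694 listed genes were called, 2247 of them higher, with 13 homeobox members called, 4 of them lower, and 2 ETS members higher. The medians were then 0.085 for homeobox, -0.55 for bHLH and -0.19 for bZIP genes. With the trend of gene length removed they were 0.24 for homeobox, -0.15 for bZIP and -0.29 for ETS genes, and the calls of ATF6 (-0.12), CREB3 (0.22), CREB1 (-0.085), MXD4 (-0.19), HHEX (0.044), HOXA5 (0.24), ISL2 (0.24), USF3 (-0.017) and LHX9 (-1.25) ended. With both removed, chosen after seeing the data, 2348 listed genes were higher, 13 homeobox members called, 3 of them lower, and 2 ETS members higher, with a homeobox median of 0.16, and the calls of ZHX3 (-0.15), SPI1 (0.028) and ELK4 (-0.18) ended, which the neighbours' median alone had not ended. The cause was not tested. Signs turned without the neighbours' median in NFE2L1 0.16, ADNP 0.029, MLX 0.073, GABPA -0.073, TCF3 -0.24, ETS2 -0.26, MAFG 0.055, CREB1 0.27, JUNB -0.15, BACH1 -0.39, CREBZF -0.23, HOXA5 -0.027, ATF6B -0.051, CREB5 -0.15 and CREB3L2 0.17, without the length trend in JUNB -0.020 and CREB3L2 0.0091, and without both in NFE2L1 0.22, TCF12 0.086, ADNP 0.15, MLX 0.074, GABPA -0.029, TCF3 -0.18, ETS2 -0.24, MAFG 0.092, ATF2 0.041, CREB1 0.40, JUNB -0.31, BACH1 -0.28, CREBZF -0.18, HOXA5 -0.20, ATF6B -0.084 and CREB3L2 0.29 (log2 fold changes).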
